A study of Mus musculus with 62 samples.

Results

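Sites of MED1, a subunit of the mediator complex, that were found in at least 2 of 4 mouse skeletal muscles were examined. MED1 had been profiled by ChIP-seq, which sequences the DNA bound to an immunoprecipitated protein, with 1 library per muscle. The muscles were the extensor digitorum longus (EDL), a limb muscle, the quadriceps (Quad), the soleus (Sol) and the diaphragm (Dia). The deposited peak lists of all 4 were merged wherever peaks shared at least 1 bp. Members were chosen by MED1 itself, as the merged regions that overlapped peaks of at least 2 muscles. There were 938 such shared regions among 9283 merged regions (10.1%, Wilson 95% interval 9.51 to 10.7), and the other 8345 held peaks of 1 muscle and are called single-muscle regions. The number depended on the lists, and without the Quad, Sol or Dia list 523, 544 or 610 regions were shared among the other 3 muscles, against 836 without the EDL list. All MED1 samples were labelled wild-type C57BL/6, with no label for a treatment, and the mice were male. Muscles of several animals were pooled into the Quad and Sol libraries, and the pooling for EDL and Dia was not given in the sources used here. The marks H3K27ac and H3K4me2 (acetylated lysine 27 and dimethylated lysine 4 of histone H3) came from sedentary wild-type C57BL/6 mice (C57BL/6J in the study's methods), with 2 libraries per mark and muscle. EDL is mainly a fast, glycolytic muscle, Quad is mixed and largely glycolytic, and Sol and Dia are more oxidative. Further Quad groups were sedentary (Sed) and wheel-running (Ex) wild-type mice, and PGC1a Tg(+) mice (mTg), which overexpress the coactivator gene Ppargc1a in skeletal muscle, with their wild-type controls (Wt). ATAC-seq (accessible chromatin) of control Quad was deposited as 1 pooled list.

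Mediator is a large protein complex that bridges DNA-bound transcription factors and RNA polymerase II, and MED1 is the subunit through which nuclear receptors contact it. Its occupancy is commonly used to mark active enhancers and promoters. tRNA genes and a few other small RNA genes are transcribed by RNA polymerase III in place of polymerase II, most tRNA genes from promoter elements inside the gene called the A box and B box. The small nuclear RNA (snRNA) genes of the splicing machinery use upstream elements, and most of them are polymerase II genes.

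The shared regions fell into 4 classes by position. A RefSeq tRNA gene lay in 141 of them, another small RNA gene (snRNA, snoRNA, 7SL, Y or RNase MRP RNA) in 32 (3.41%), a promoter without such a gene in 480, and 285 lay outside promoters and small RNA genes. Promoters were taken as the 1000 bp before a start site and the 100 bp after it, and a merged region counted as one when any of its peaks did. Of the single-muscle regions, 27 held a tRNA gene (0.324%) and 8 another small RNA gene (0.0959%). The share with a tRNA gene was 6.54% of 612 regions found in 2 muscles, 24.7% of 231 found in 3 muscles and 46.3% of 95 found in all 4. With the other small RNA genes, 56 of the 95 four-muscle regions (58.9%) held one. The overlap with small RNA genes was examined after the data had been seen.

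**Figure D1:**
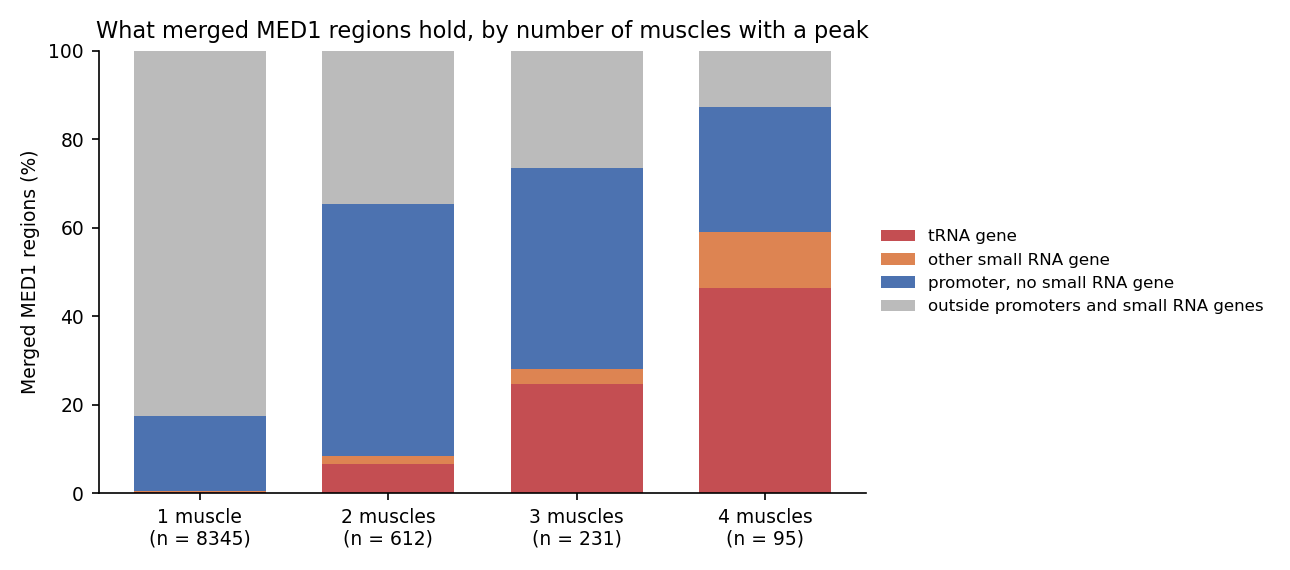
Share of merged MED1 regions (y axis, %) in each of 4 positional classes, by the number of muscles with a peak (x axis, number of regions in parentheses). Annotated tRNA and other small RNA genes took 0.324% and 0.0959% of single-muscle regions and 46.3% and 12.6% of four-muscle regions. Regions outside promoters and annotated small RNA genes fell from 82.6% to 12.6%.

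The sequences of 5 four-muscle regions are given as examples, picked after the data had been seen for holding a small RNA gene or copy. They are RefSeq GRCm38.p6 (mm10) sequence, written 5′ to 3′ along the strand of the gene, with the gene or the stretch named in the text in capitals. The first holds a tRNA gene, the next pair snRNA genes, and the last pair copies of 4.5S RNA, a small rodent RNA.
n-TLcag10, leucine tRNA with anticodon CAG, chr13:23453389-23453626, minus strand: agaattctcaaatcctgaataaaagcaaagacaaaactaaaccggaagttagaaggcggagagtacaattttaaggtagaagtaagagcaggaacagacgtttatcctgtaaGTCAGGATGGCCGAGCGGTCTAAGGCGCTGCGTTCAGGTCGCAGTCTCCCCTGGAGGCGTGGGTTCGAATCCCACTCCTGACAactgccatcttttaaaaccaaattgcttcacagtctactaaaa
Rnu1a1, U1 snRNA, chr11:87422751-87423011, plus strand: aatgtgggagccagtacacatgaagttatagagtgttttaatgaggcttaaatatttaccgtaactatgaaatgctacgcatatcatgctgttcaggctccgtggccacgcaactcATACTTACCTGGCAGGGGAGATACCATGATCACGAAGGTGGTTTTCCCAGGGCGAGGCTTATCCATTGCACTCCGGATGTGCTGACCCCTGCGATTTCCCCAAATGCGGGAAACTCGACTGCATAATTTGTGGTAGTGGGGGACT
Rnu11, U11 snRNA, chr4:132270040-132270308, minus strand: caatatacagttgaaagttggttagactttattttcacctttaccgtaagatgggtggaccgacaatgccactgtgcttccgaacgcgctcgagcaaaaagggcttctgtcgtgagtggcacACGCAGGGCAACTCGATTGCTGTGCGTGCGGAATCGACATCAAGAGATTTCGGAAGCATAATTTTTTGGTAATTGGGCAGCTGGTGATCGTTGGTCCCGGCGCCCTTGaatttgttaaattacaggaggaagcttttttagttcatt
4.5S copy nearest to Rn4.5s, chr6:47748391-47748610, minus strand: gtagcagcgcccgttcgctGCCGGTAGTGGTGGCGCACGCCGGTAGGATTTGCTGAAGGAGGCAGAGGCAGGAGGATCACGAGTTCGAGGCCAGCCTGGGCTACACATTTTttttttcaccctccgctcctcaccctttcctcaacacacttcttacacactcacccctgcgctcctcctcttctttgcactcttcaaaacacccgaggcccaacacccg
4.5S copy in the Klrb1c interval, chr6:128760700-128760934, minus strand: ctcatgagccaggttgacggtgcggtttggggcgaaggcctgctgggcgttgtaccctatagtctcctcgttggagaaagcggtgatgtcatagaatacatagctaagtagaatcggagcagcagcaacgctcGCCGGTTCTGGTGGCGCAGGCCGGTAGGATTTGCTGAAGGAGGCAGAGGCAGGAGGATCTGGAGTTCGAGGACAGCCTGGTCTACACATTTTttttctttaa
A further four-muscle region covered the promoter of Polr2a, the gene of the largest subunit of RNA polymerase II, and its stretch upstream of the annotated gene carried the SP1 word GGGCGG and the TATA word TATAAA, in capitals.
Polr2a upstream stretch, chr11:69758634-69758700, minus strand: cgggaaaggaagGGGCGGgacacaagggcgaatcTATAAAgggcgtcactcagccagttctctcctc

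MED1 peak scores of these regions, which are tag-based and on a scale of their own in each list, were above the median of the list in every muscle, and the scales do not allow a ranking of muscles. The region at Rnu1a1 scored 28.8 (EDL), 57.5 (Quad), 32.8 (Sol) and 38.6 (Dia). The region at Rnu11 scored 25.2, 57.5, 40.4 and 25.6 in the same order. At n-TLcag10 they were 24, 21.7, 28.7 and 13.1. At Polr2a the scores were 27.6, 38.3, 28.1 and 31.3. For comparison, the median score over all peaks was between 6.26 (Dia) and 6.61 (EDL).

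Among the 15 four-muscle regions with the highest mean percentile of MED1 score, 14 are described here. Of these, 6 held a tRNA gene and 5 a gene that RefSeq types as snRNA. The tRNA genes were those of leucine (n-TLtag1 and n-TLcag10), aspartate (n-TDgtc8), histidine (n-THgtg4), serine (n-TSgct3) and methionine (n-TMcat11). Their Sol scores were between 28.7 and 36.3. The 5 snRNA genes were Rnu1a1, Gm22068 and the U3 gene Rnu3b3 within the interval of Tex14, Rnu11, and Gm22513 near Eapp. Their Quad scores were between 44.7 and 57.5. The remaining 3 regions lay at the Polr2a promoter, at the promoter of the antiproliferative gene Tob1 (19.2, 31.3, 19.3 and 16.7 in EDL, Quad, Sol and Dia) and at the 4.5S copy whose nearest gene was Rn4.5s (24, 19.8, 27.5 and 18.3).

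**Figure D2:**
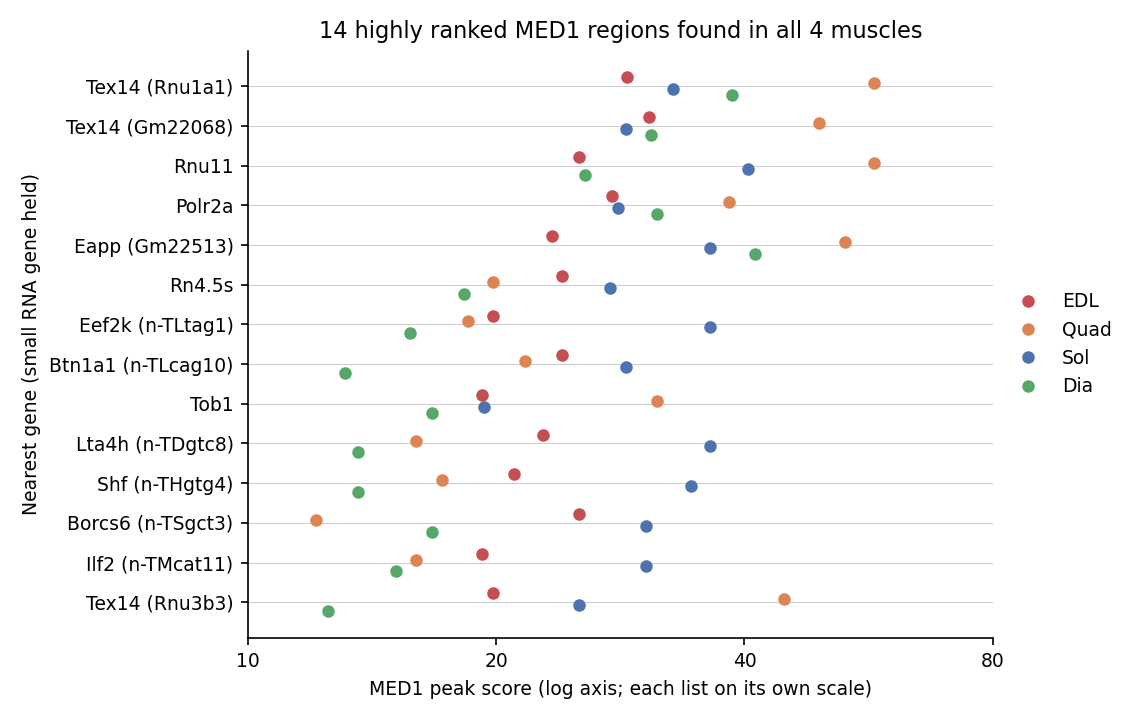
MED1 peak score (x axis, log scale, each list on its own scale) in the 4 muscles (coloured points) for 14 of the 15 highest-ranked four-muscle regions (y axis, nearest gene with the small RNA gene held in parentheses). In Sol the 6 regions with a tRNA gene scored between 28.7 and 36.3. In Quad the 5 with a gene that RefSeq types as snRNA scored between 44.7 and 57.5, and scores are not compared between muscles.

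The shared regions were uneven across muscles. EDL had the shortest list and the largest part of it shared, 318 of 834 peaks (38.1%). Dia had 571 of 2145 (26.6%), Quad 721 of 3593 (20.1%) and Sol 687 of 4070 (16.9%) in shared regions. The most frequent combinations were Quad with Sol (209 regions), Quad with Dia (160), Sol with Dia (141) and these 3 muscles together (110), followed by all 4 muscles (95) and EDL with Quad and Sol (78). Peaks with high scores were shared more often, since 78.0% (Quad) to 89.7% (EDL) of the top 10% by score were in shared regions, against 2.27% (Sol) to 10.2% (EDL) of peaks at percentile 50 or below. tRNA genes were concentrated in the combinations with EDL and Sol, with 41 of 78 regions of EDL, Quad and Sol (52.6%) and 8 of 18 regions of EDL, Sol and Dia. They were in 1 of 160 regions of Quad with Dia (0.625%). MED1 chose the members, so these scores and counts are descriptive, and the depth of the MED1 libraries was unknown.

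At the edge of the rule, the region at Bri3 was a member through a 1 bp overlap of its Quad and Dia peaks (scores 7.03 and 7.31), and the one at St3gal3 through 3 bp between Sol and Dia (8.19 and 7.31). Just outside, the Quad and Dia peaks at the promoter of the ribosomal protein gene Rps12 (14.7 and 20.4) lay end to end with a gap of 0 bp. The Dia and Sol peaks in an intron of Mbnl2 (7.31 and 9.94) were 1 bp apart. Of the 612 regions of 2 muscles, 5 overlapped by 10 bp or less, and the median overlap was 148.5 bp.

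The 403 nuclear tRNA genes of the RefSeq annotation were then taken as the starting point. MED1 peaks covered 115 of them in EDL (28.5%, 24.3 to 33.1), 129 in Quad (32.0%), 139 in Sol (34.5%, 30.0 to 39.3) and 70 in Dia (17.4%, 14.0 to 21.4). Shared regions covered 142 (35.2%), and four-muscle regions 45. The share of a muscle's own list that fell on tRNA genes was 13.7% in EDL (114 of 834 peaks) and between 3.26% and 3.59% in the other 3 muscles. Among the 50 highest-scoring peaks it was 42 in Sol, 27 in EDL, 9 in Quad and 4 in Dia. Sol and EDL therefore held mostly tRNA genes at the top of their lists, whereas 32 of the top 50 in Dia and 22 in Quad were promoters without a small RNA gene.

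The tRNA genes with a shared MED1 region were mostly those in H3K4me2-marked chromatin. Of 188 tRNA genes that overlapped an H3K4me2 peak in all 4 muscles, 122 (64.9%) had a shared MED1 region, and of 173 without such a peak in any muscle 5 (2.89%) had one. By amino acid, the share ran from 14 of 24 arginine (58.3%) and 14 of 25 leucine tRNA genes (56.0%) to 5 of 57 cysteine tRNA genes (8.77%). By chromosome, 31 of 105 tRNA genes on chromosome 13 and 26 of 47 on chromosome 11 had one, against 4 of 53 on chromosome 6. NFAT, a transcription factor profiled in Quad and Sol with 1 library each, had no peak at these genes in Quad and peaks at 2 in Sol. NFAT peaks were rare at MED1 sites of any kind, at 2 of all 9283 merged regions in Quad and 82 (0.883%) in Sol.

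The MED1 peaks of tRNA members were placed along the tRNA genes. These members were chosen for overlapping a tRNA gene, so short distances were partly set by that choice. The median distance of the peak centre from the 5′ end of the tRNA gene, counted along transcription, was 7.5 bp in EDL (110 peaks of shared regions), 12 bp in Quad (119), 4 bp in Sol (127) and 3.5 bp in Dia (68). Within 50 bp of the 5′ end lay 90, 82, 107 and 56 of these peaks. The B box word GGTTCGA, which the printed n-TLcag10 gene holds, was present on either strand in the central 210 bp of 93 of the 141 tRNA members (66.0%). It was present in 67 of 8345 single-muscle regions (0.803%) and in 1.81% of all merged regions. The tRNA members were defined by holding a tRNA gene, so this contrast was set by the class and says nothing about sharing. This word was chosen after the data had been seen.

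**Figure D3:**
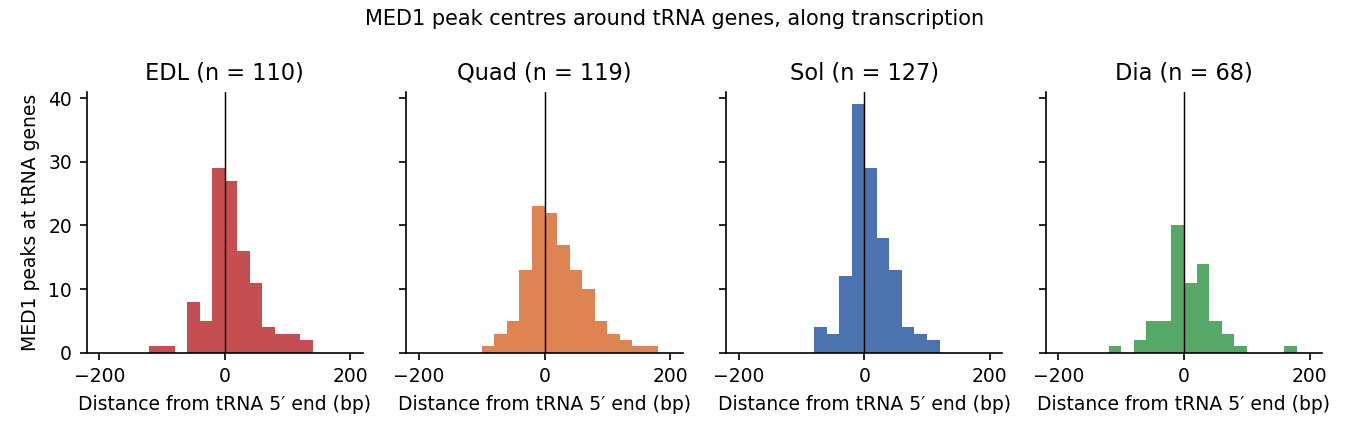
Number of MED1 peaks of shared regions with a tRNA gene (y axis) by the distance of the peak centre from the 5′ end of the tRNA gene (x axis, bp, positive values downstream along transcription), in 4 muscles. Most centres lay within 50 bp of the 5′ end, with medians between 3.5 and 12 bp.

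Several shared regions lay in runs with gaps of at most 50000 bp. The longest run had 11 regions, 9 of them with a tRNA gene, at chr11:69036886-69125364 around Aurkb, Borcs6, Vamp2 and Hes7. A run of 10 at chr13:21160699-21279868 near Trim27 and one of 9 at chr13:23431300-23453626 near Btn1a1 had a tRNA gene in every region, and 4 of the 9 were four-muscle regions. At chr11:87422751-87471741, in the interval of Tex14, all 6 regions were found in all 4 muscles. Each held a gene that RefSeq types as snRNA (Rnu1a1, Gm22068, Rnu3b1, Rnu3b2, Rnu3b3 and Rnu3b4). The 2 at Rnu1a1 and Gm22068 had peaks of both marks in all 4 muscles. The 4 at the U3 genes had H3K27ac peaks in at most 1 muscle and H3K4me2 peaks in at most 2.

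A run of 8 regions at chr6:128760071-128843412, near the natural killer receptor genes Klrb1c and Klrb1b, held no annotated small RNA gene. The first 92 bases of RefSeq Rn4.5s were compared with all members, and a copy was counted with at most 15 differing bases (substitutions, insertions or deletions). Copies with 0 to 9 differences were found in 9 shared regions, 6 of them in the Klrb1 run and 3 near Rn4.5s and Mir704. The next closest member differed by 29 bases, the median member by 40, and 1 single-muscle region also held a copy. The exact copy at chr6:47748391-47748610 had no peak of either mark in any muscle, while 5 of the 6 copies in the Klrb1 run had H3K4me2 peaks in all 4. This comparison was made after the data had been seen. Reads from near-identical copies cannot always be placed, and the authors kept only uniquely mapped reads, so the levels at repeated genes are uncertain.

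The 32 members with another small RNA gene covered 25 of the 997 genes that RefSeq types as snRNA. They included the spliceosomal genes Rnu1a1, Rnu2-10, Rnu5g, Rnu11 and Rnu12, the histone mRNA processing gene Rnu7 and Rn7sk, whose RNA restrains the elongation factor P-TEFb. Polymerase III genes outside the snRNA type were Rny3 (Y RNA), Rmrp (RNase MRP RNA) and both 7SL genes, Rn7s1 and Rn7s2. In the region at Rn7sk MED1 scored 11.5 in Quad and 16.4 in Sol, with no peak in EDL or Dia. At Rmrp it scored 15.3 in Quad and 17.0 in Sol. At Rn7s2 it scored 6.39 in Quad and 15.8 in Sol.

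Promoters were the largest class. A promoter was present in 522 of 938 shared regions (55.7%, 52.5 to 58.8) and in 17.0% of single-muscle regions. Shared regions were thus closer to start sites, and this held also for those outside the promoter window. The 655 MED1 peaks of the 285 shared regions outside promoters and small RNA genes lay at a median distance of 261 bp from the nearest start site, 75.1% of them within 1000 bp, and 89.9% were downstream of it. The 6895 single-muscle peaks of that class had a median distance of 22976 bp, 14.2% lay within 1000 bp and 66.2% beyond 10000 bp. With a window of 500 bp on either side, 74.2% of shared regions were at a start site.

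The 27 four-muscle promoter regions included those nearest to the transcription genes Polr2a, Gtf2a1 and Nfyc, the splicing factor gene Srsf6, the translation elongation gene Eef2, the chaperone genes Hspa8 and Hsp90ab1, and the cytoskeletal gene Actb. Muscle-related names among them were Trim63 (the atrophy ubiquitin ligase MuRF1), Slc25a4 (the mitochondrial ADP/ATP carrier of muscle), Ak1 (adenylate kinase) and Fnip1. The 12 four-muscle regions outside promoters and small RNA genes included those nearest to Rn4.5s, Klrb1c, the vault RNA gene Vaultrc5, Polr3e (a subunit of RNA polymerase III), Zfp143 (an activator of snRNA genes), Dusp1, Jund, Pnrc1, Reep3, Nr1d2 and Mlxipl. Names in this paragraph were picked after the values had been seen.

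Outside promoters and annotated small RNA genes, 30 shared regions were farther than 10000 bp from a start site. They included all 8 regions of the run near Klrb1c and Klrb1b. Most of these 8, and another region near Mir704, held a copy of the small rodent RNA described above, where read placement is uncertain. Shares without the regions holding copies were not calculated. Of these 30, 16 (53.3%, 36.1 to 69.8) had H3K27ac peaks in all 4 muscles and 5 had no peak of either mark anywhere. Of the 4565 far single-muscle regions the corresponding shares were 11.0% and 76.9%. The highest scores of the far shared regions were at Cdk8 (92.5 in EDL and 82.5 in Sol), Axin2 (64.9 in EDL, 40.9 in Quad and 47.4 in Sol) and Dtnbp1 (42.0 in EDL and 24.6 in Sol). Those at Cdk8 were the highest of any shared region in the EDL and Sol lists. No filter for regions of anomalous signal was applied here. These 3 regions had no histone peak of either mark in any muscle and overlapped an ATAC peak. They were picked by score after the data had been seen. By contrast, the far region near Arid1a (17.2 in Quad and 13.1 in Dia) and the intronic one in Pde4dip (16.6 in Quad and 9.94 in Sol) had H3K27ac peaks in all 4 muscles.

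The histone libraries were not used to choose the members. An H3K27ac peak overlapped 92.0% of shared regions in EDL (863 of 938), 87.3% in Quad and 90.3% in Sol, with 90.1% in Dia. All 4 muscles had one at 795 regions (84.8%, 82.3 to 86.9), against 34.5% of single-muscle regions. H3K4me2 peaks overlapped 96.5% of them in EDL and 93.2% in Quad, with 92.9% in Sol and 88.3% in Dia, and 802 regions (85.5%, 83.1 to 87.6) had them in all 4, against 32.8% of single-muscle regions. Both marks were present in all 4 muscles at 694 shared regions (74.0%). No peak of either mark in any muscle was found at 15 shared regions (1.60%) and at 51.7% of single-muscle regions. Each histone list was 1 call over both libraries of a muscle, so these shares have a counting interval over regions and no replicate error.

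The classes differed in their marks. Regions at tRNA genes had H3K27ac peaks in 61.7% (EDL), 44.0% (Quad), 56.0% (Sol) and 57.4% (Dia) of cases, and 36.2% had them in all 4 muscles, whereas 87.9% had H3K4me2 in all 4. H3K4me2 in all 4 muscles with H3K27ac in fewer was found at 81 of the 141 tRNA members (57.4%) and at 14 of the 480 promoter members (2.92%). Promoter members had H3K27ac in all 4 muscles in 97.1% and H3K4me2 in 87.7% of cases. Members outside promoters and small RNA genes had 88.1% and 81.4%. Single-muscle promoters had 85.4% and 91.3%, so the gap between shared and single-muscle regions was smaller within promoters for H3K27ac, and for H3K4me2 the order was the reverse.

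**Figure D4:**
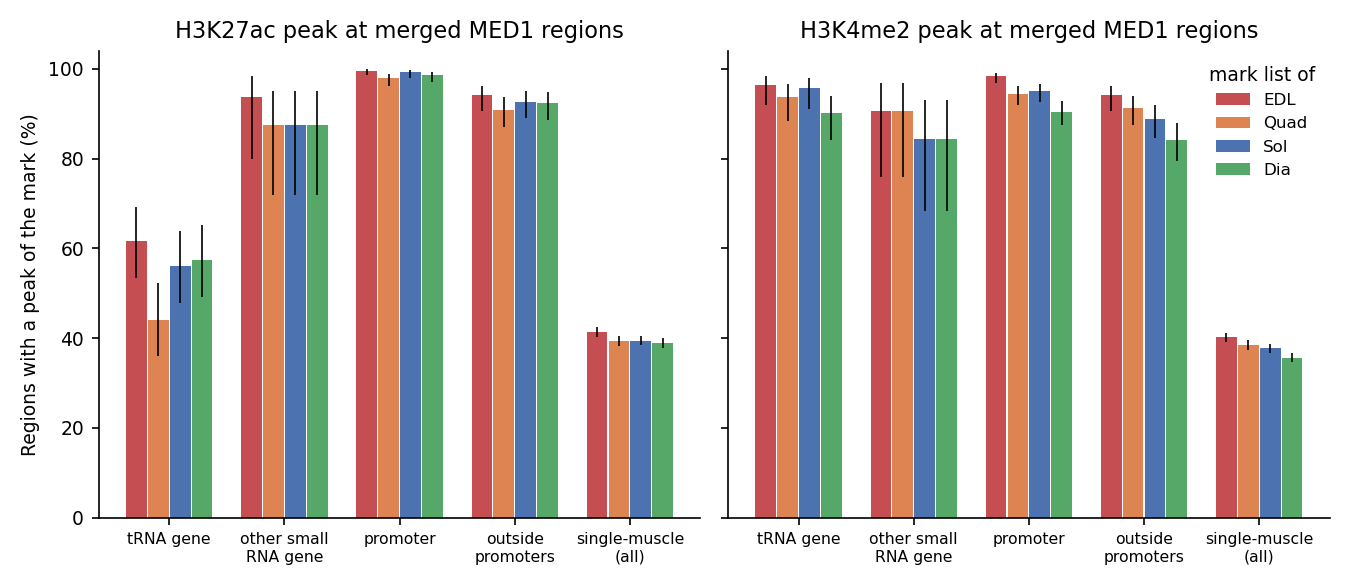
Share of merged MED1 regions (y axis, %) that overlapped an H3K27ac (left) or H3K4me2 peak (right) of each muscle (colours), for 4 classes of shared regions and for all single-muscle regions; bars show Wilson 95% intervals over regions. tRNA members had H3K27ac in 44.0% to 61.7% and H3K4me2 in 90.1% to 96.5% of cases.

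The marks of a muscle were present at shared regions whether or not MED1 was called in that muscle. In EDL, 84.6% of the 318 shared regions with an EDL MED1 peak overlapped an EDL H3K27ac peak, and 95.8% of the 620 without one did. In Dia the order was reversed, with 93.5% of 571 regions with and 84.7% of 367 without a Dia MED1 peak. In Quad the shares were 87.4% and 87.1%, and in Sol 88.6% and 94.8%. Members with a peak in EDL held more tRNA genes (34.6% of EDL peaks in shared regions) than those with a peak in Dia (11.9%), and whether this accounts for the difference was not tested.

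Levels were compared within each histone library as percentiles. A MED1 peak was given the percentile, in the list of its own muscle, of the log2 tag level per kb of the histone peak beneath it, so that 50 is the middle of that list. In EDL, the median H3K27ac percentile under MED1 peaks of shared regions was 94.8 and 94.7 in the 2 libraries, against 88.9 and 88.0 under single-muscle MED1 peaks. In Quad it was 95.9 and 96.0 against 91.1 and 90.7. In Sol it was 94.4 and 93.9 against 86.1 and 85.6, and in Dia 95.3 and 95.1 against 89.4 and 88.1. Shared sites were higher in 8 of 8 libraries, by 6.55 ± 1.30 percentile points (SD, n = 8 libraries), and an exact two-sided sign-flip permutation test gave p = 0.0078125, the smallest value that 8 libraries can give.

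For H3K4me2 the median percentile at shared sites was 91.0 and 90.7 in EDL, 93.2 and 92.6 in Quad, 87.8 and 87.6 in Sol and 88.7 and 88.7 in Dia. At single-muscle sites it was 80.7 and 79.3, 87.7 and 87.0, 81.9 and 81.9, and 84.7 and 85.0. The difference was 6.54 ± 2.81 points (SD, n = 8 libraries), higher in 8 of 8, with p = 0.0078125 in the same exact permutation test. The 2 libraries of a muscle shared its peak list and its MED1 peaks. With 1 mean per muscle, the differences were 6.55 and 6.54 and the exact permutation p was 0.125, the smallest that 4 muscles can give. The size of the difference depended on which peaks entered. For H3K27ac it was 2.8 points with the 834 best-scoring peaks of every list and 3.21 with peaks above the median score, and for H3K4me2 it was 11.1 with promoter peaks left out (exact permutation p = 0.0078125 each).

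The input libraries, sheared chromatin without immunoprecipitation, moved in the same direction. Their median percentile at shared sites was 89.0 to 91.8 in the H3K27ac lists, against 76.1 to 84.3 at single-muscle sites, and 86.8 to 89.9 against 73.8 to 82.5 in the H3K4me2 lists. After the input level was subtracted, a step added after seeing the data, the H3K27ac difference was 5.39 points and remained positive in 8 of 8 libraries (exact permutation p = 0.0078125). The H3K4me2 difference was 0.932 points, positive in 3 of 8 libraries, with an exact permutation p of 0.477. The H3K4me2 level over input was higher at shared sites in both EDL libraries (6.48 and 6.30 points) and in 1 Quad library (0.285), and lower in the other 5 libraries (differences between -2.62 and -0.221 points).

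**Figure D5:**
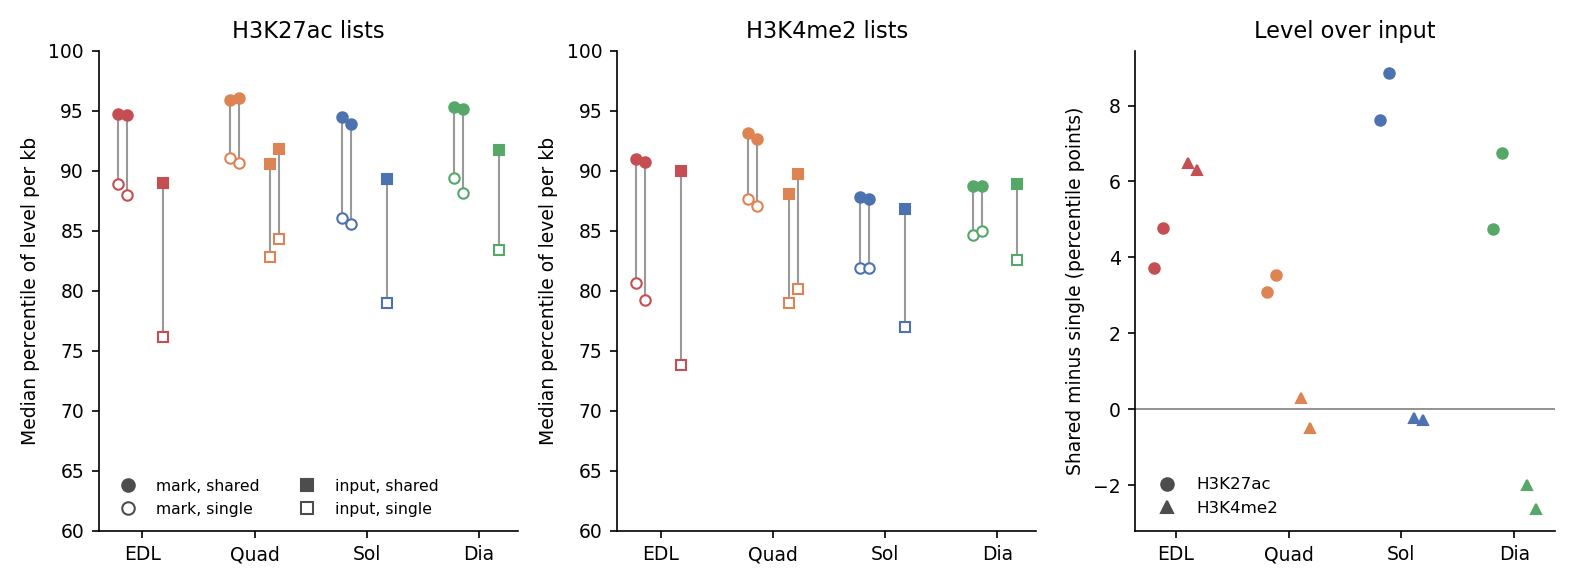
Left and middle, median percentile of the level per kb (y axis, from 60) under MED1 peaks of shared (filled) and single-muscle regions (open) in each histone library (circles) and input library (squares) of 4 muscles. Right, shared minus single-muscle difference of the level over input in percentile points, which was above 0 in 8 of 8 H3K27ac libraries and 3 of 8 H3K4me2 libraries.

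By class, median H3K27ac percentiles over the 8 libraries ran from 83.4 to 92.9 at tRNA members, from 95.7 to 97.3 at promoter members and from 93.2 to 96.9 outside both. For H3K4me2 the order was different, with 92.7 to 97.0 at tRNA members, 87.0 to 92.8 at promoter members and 84.7 to 90.5 outside both. tRNA members had the lowest H3K27ac and the highest H3K4me2 range of the 3 classes. Input percentiles at tRNA members were 92.4 to 96.0 in the H3K27ac lists and 91.8 to 96.0 in the H3K4me2 lists. Their part in the levels at tRNA genes was not tested.

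The accessible chromatin used here was that of Quad alone, although the paper also profiled EDL, Sol and Dia. An ATAC peak of control Quad overlapped 545 shared regions (58.1%, 54.9 to 61.2) and 16.4% of single-muscle regions. The share was 66.5% of promoter members, 52.5% of tRNA members and 46.7% of members outside both, and 52.8% of single-muscle promoters. NFAT peaks of Sol overlapped 16 members (1.71%), against 0.791% of single-muscle regions, and 1 member had an NFAT peak of Quad.

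The next question was whether the histone level at shared regions separated the faster from the more oxidative muscles. Among the 795 regions with H3K27ac in all 4 muscles, the 4 libraries of EDL and Quad were all above the 4 of Sol and Dia at 91 (11.4%), and below them at 59 (7.42%). Over all 19318 H3K27ac regions present in the 4 lists the shares were 12.8% and 5.69%. For H3K4me2 the shares of 802 members were 21.3% and 4.61%, beside 22.6% and 2.36% of all regions. The shares higher in EDL and Quad were near those of all regions, as was the H3K27ac share higher in Sol and Dia. The H3K4me2 share higher in Sol and Dia was above that of all regions, and the difference was not tested. Regions that MED1 occupied in exactly EDL and Quad had H3K27ac higher in these muscles at 5 of 35 (14.3%) and lower at 2. Those in exactly Sol and Dia had it higher in Sol and Dia at 9 of 128 (7.03%) and lower at 6. The 14.3% and 7.03% were near the shares of all regions, 12.8% and 5.69%.

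The member with the largest excess of H3K27ac in EDL and Quad lay at the end of Myl1, the fast skeletal myosin light chain gene (chr1:66923268-66923608). Its percentiles were 59.3 and 60.8 in EDL and 67.7 and 55.8 in Quad, against 22.4 and 16.7 in Sol and 28.6 and 33.5 in Dia. MED1 was called there in EDL (10.8) and Sol (8.19). Nol9 followed with an excess of 26.8 points. Near Ung, the uracil DNA glycosylase gene, the percentiles were 97.0 to 99.4 in EDL and Quad and 67.0 to 79.9 in Sol and Dia, although MED1 was called in Sol and Dia. At Slc11a2 the excess was 18.4 points, and at Relt it was smaller.

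In the other direction the largest excess was at the Zswim6 promoter, where the means were 44.7 in EDL and Quad and 84.7 in Sol and Dia. The 2 Quad libraries (30.1 and 7.08) were far below the EDL ones (73.0 and 68.5) and differed from each other. Nudt3, Ctnnb1 (beta-catenin), Pitpnm2 and Dync1h1 (the dynein heavy chain) differed by 12.7, 12.6, 12.1 and 11.6 points. At Ctnnb1, a four-muscle region, the percentiles were 73.6 and 72.1 in EDL, 66.5 and 66.1 in Quad, 76.8 and 76.4 in Sol and 87.0 and 88.7 in Dia. Of these 10 genes, Myl1 was the one on the list of contractile genes.

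The 5 highest-ranked regions with MED1 in exactly EDL and Quad were at Plin4 (22.8 and 14.7), at the tRNA genes n-TPagg7, n-TTtgt3 and n-TNgtt12, and at the promoter of Ttn (12.6 and 15.3), the giant sarcomere protein titin. Those of exactly Sol and Dia were at Psmg2, Btg2, the tRNA gene n-TPtgg8, Hnrnph1 and the chaperone gene Hspa5. The proline tRNA genes n-TPagg7 and n-TPtgg8 both lay near Wnt11. MED1 scored 22.8 and 13.4 in EDL and Quad at the first, and 25.2 and 12.0 in Sol and Dia at the second. These regions, chr7:98815637-98815856 and chr7:98815302-98815516, lay next to each other.

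The 938 regions were nearest to 851 genes, of 6652 genes nearest to any merged region (12.8%), and 800 of the 851 had 1 shared region. Of 40 immediate early and stress genes, 38 were nearest to some MED1 region, and 25 of these (65.8%) to a shared one. Jun, whose product is part of the AP-1 factor, scored 21.1 in Quad, 16.4 in Sol and 15.1 in Dia. Its partner Jund scored 10.8, 35.8, 24.6 and 20.9 in EDL, Quad, Sol and Dia, and the MAP kinase phosphatase gene Dusp1 13.8, 30.0, 24.6 and 21.9. Btg2 scored 14.6 in Sol and 14.1 in Dia, and the small heat shock gene Hspb6 14.7 in Quad and 12.9 in Sol. All 5 had H3K27ac peaks in all 4 muscles.

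Of 47 contractile genes, 39 were near any MED1 region, and 9 of these (23.1%) near a shared one. The highest-ranked were Tcap, titin's Z-disc partner (46.6 in Quad and 13.6 in Dia), Acta1, skeletal alpha-actin (29.4 and 12.5), Ttn, Neb (nebulin) and Tnnc2 (fast troponin C). Energy metabolism genes had 9 of 29 near any MED1 region (31.0%), among them Gapdh (12.8 in Quad, 18.1 in Sol and 12.0 in Dia), Ckm (creatine kinase, 17.9 in Quad and 9.92 in Dia), Hk2, the glucose transporter gene Slc2a4 and the glycogen phosphorylase gene Pygm. Calcium handling had 1 of 9, the release channel gene Ryr1 (10.2 in EDL and 12.1 in Quad). None of the shared regions of these 3 lists was found in all 4 muscles.

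Muscle transcription regulators had a shared region at Klf15, Ankrd23, Nr4a1 and Nr4a3, 4 of the 33 near any MED1 region (12.1%, 46 genes in the list). Circadian genes had 6 of 14, and Nr1d2, the gene of the nuclear receptor REV-ERB beta, was the one with a four-muscle region (7.81, 12.1, 14.0 and 11.5). Growth and atrophy genes had 4 of 10, with a four-muscle region at Trim63 (10.2, 12.1, 11.7 and 14.1) and the others at Txnip, Irs2 and Cdkn1a. Muscle microRNA hosts had 0 of 2. Of the myofiber markers, Acta1, Ckm and Ttn had a shared region (3 of 8 listed, and of the 7 near any MED1 region 42.9%). None of the markers of endothelium, fibroblasts or satellite cells had one. Those near a single-muscle region were 5 of 8 endothelial, 2 of 6 fibroblast and 1 of 5 satellite cell markers. Over all genes near a MED1 region, 12.8% had a shared one, so none among so few markers does not set them apart. Markers of smooth muscle, immune cells, adipocytes, nerve and erythroid cells were near no MED1 region and could have no shared one.

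Members in the authors' lists of differentially acetylated Quad regions were few. The list of regions less acetylated in Ex than in Sed held 20 members (2.13% of all members, against 2.54% of all single-muscle regions). It covered 5.43% of the H3K27ac regions of those groups. Of the members, 873 had an H3K27ac peak of Ex or Sed. A Sed H3K27ac peak overlapped 91.6% of shared but 40.6% of single-muscle regions. The 2.13% and 2.54% are therefore not shares of acetylated regions and cannot be compared as such. The list more acetylated in mTg than in Wt held 8 members (0.853%, against 1.01%, again over all MED1 regions), beside 3.27% of the H3K27ac regions. An H3K27ac peak of mTg or Wt was present at 869 members. A Wt peak overlapped 90.2% of shared and 39.8% of single-muscle regions, so the same limit holds. No member was in the list higher in Ex or in the list lower in mTg, which covered 0.909% and 1.51% of the regions. The lists were selected by the authors for differing, so the values that follow are given without a test.

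The largest decreases in Ex were at Ephb1, Ddit4l and Ttn. At Ephb1, an ephrin receptor gene, the log2 H3K27ac levels were 7.74 and 7.41 in Ex against 8.68 and 8.38 in Sed. At the Ttn promoter they were 10.03 and 9.75 against 10.93 and 10.68. Ryr1, Trim63, Myoz2 and Tcap were among the other 17, with lower values in both Ex than in both Sed libraries. In mTg the largest increases were at Coq8a, a coenzyme Q gene (12.20 and 12.00 in mTg against 11.03 and 11.17 in Wt), the cytolinker gene Plec and Acadl, a fatty acid oxidation gene (9.90 and 9.71 against 8.98 and 8.83). Of the 8 mTg regions, 3 held a tRNA gene, 1 at Mir193b and 2 near Trim27, with levels of 4.69 to 6.58 in Wt and 5.15 to 7.22 in mTg.

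Over 210 bp windows the median GC content was 65.2% in shared and 48.6% in single-muscle regions, and the median CpG observed over expected ratio was 0.883 and 0.260. Within promoters the gap was narrow, 68.1% and 64.8%. tRNA members had a median of 47.6%. The SP1 word GGGCGG was in 41.3% of shared and 16.1% of single-muscle windows, and in 49.6% and 45.7% of the promoter windows of each kind (18.7% of all merged regions).

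Words of muscle and stress factors were searched in the same windows. The E-box CAGCTG was in 10.9% of shared, 11.4% of single-muscle and 11.4% of all windows. The AP-1 word TGAGTCA was in 1.39%, 3.34% and 3.15% of these, the MCAT word CATTCC in 6.29%, 10.7% and 10.3%, and the NFY word CCAAT in 12.2%, 22.9% and 21.8%. The ERR word was in 0.426% of shared and 0.395% of single-muscle windows. The MEF2 word was in 0.533% of shared, 0.443% of single-muscle and 0.452% of all windows, and the SRF CArG word in 0.426%, 1.01% and 0.948%. The TATA word TATAAA, chosen after the data had been seen, was in 7.14% of shared and 11.5% of single-muscle windows. Its order depended on the class, with 5.83% and 5.09% of the promoter windows of each kind and 14.2% of tRNA members. Both strands were searched, and a match or its absence describes the letters of the window only.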

How the data were processed

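MED1 and NFAT nuclei were crosslinked by the authors with DSG and then formaldehyde, and the reads were aligned with Bowtie (version 1.2 in the submitters' processing notes, which name builds mm10 and mm9) with uniquely mapped reads kept, 1 tag per position. The peak score of each MED1 and NFAT peak is the authors' deposited HOMER value, a normalized tag score, and the depth of these libraries was unknown. The deposited log2 values of histone peaks were made by the authors with HOMER and DESeq2 over both libraries and the input of a muscle. The deposited ATAC signal was a tag number pooled over control libraries. H3K27ac libraries held 15.3 to 24.2 M tags and H3K4me2 libraries 16.8 to 22.7 M tags. The authors' own fold changes were used in 1 alternative, as a filter, and are not printed.

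From these files, MED1 peaks sharing 1 bp were merged, and overlaps with histone, ATAC and NFAT peaks were taken at 1 bp. All positions are mm10 (GRCm38.p6). Log2 histone values were reduced to a level per kb and to percentiles within a library, since lists had been normalized separately. Levels were compared by an exact two-sided sign-flip permutation test over libraries. Shares have Wilson 95% intervals, which cover counting over regions only. Replicate libraries came from separate animals or pools only as far as the labels and methods state, so p-values measure the spread between these libraries. Named regions were the 15 four-muscle regions, and the 5 each of exactly EDL with Quad and exactly Sol with Dia, with the highest mean percentile of MED1 score, the 5 with the largest H3K27ac difference in each direction, 2 on each side of the overlap rule, the 5 highest-ranked shared regions of each gene list, and the 3 with the largest difference in each differential list. Members and lists were chosen with earlier results of these data known. The merging, overlap, percentile and permutation steps were tested on simulated data. Python 3.11.15, numpy 2.4.6, pandas 2.3.3, scipy 1.17.1, matplotlib 3.10.9, pysam 0.24.0 and edlib 1.3.9.post1 were used. Footprint lists, the ATAC lists of Ex and mTg, and the H3K4me2 lists of the 4 further Quad groups were not used here. A few items, among them 1 of the 15 four-muscle regions, are not reported here.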

Additional observations from a re-analysis of the deposited data

Results flagged for a closer look

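The H3K4me2 level over input at shared minus single-muscle MED1 sites had opposite signs in different muscles. Both EDL libraries were positive, with a mean of 6.39 percentile points, and both libraries of Sol (mean -0.251) and of Dia (mean -2.31) were negative. EDL exceeded Sol by 6.64 points and Dia by 8.7 points. The difference between muscles was not tested. In all, 9 groups of values were examined for a sample standing apart, and none was found.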

How the results depend on the processing

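Of 67 alternative values, 43 kept their direction, their side of the threshold or their size, 17 moved, 7 no longer passed the threshold and none reversed. With the 834 best-scoring peaks of every list, 592 regions were shared, 81.8% had H3K27ac in all 4 muscles and 17 were in the differential lists. Without each muscle in turn, the number of shared regions ran from 523 to 836 (from fewer libraries, by construction), the H3K27ac share from 80.5% to 85.6%, the promoter share from 48.7% to 56.5% and the ATAC share from 53.9% to 60.7%. The ATAC share was 61.3% with peaks merged up to 200 bp apart and 54.7% with ATAC peaks above the median score. The H3K4me2 share was 81.6% when at least 0.5 of a region had to lie in histone peaks. The promoter share was 74.2% within 500 bp of a start site. With small RNA regions left out, chosen after seeing the data, the H3K27ac share was 93.7% and the promoter share 62.7%. The H3K27ac level difference was 6.25 to 6.85 points without one replicate number and 6.55 with 1 mean per muscle, and that of H3K4me2 6.44 to 6.65 and 6.54. The exact permutation p was 0.125 in these cases, the smallest that 4 values allow. The H3K27ac difference was 2.8 points with the 834 best-scoring peaks of every list and 3.21 with peaks above the median score, and the H3K4me2 difference 11.1 with promoter peaks left out, all at the exact permutation p of 0.0078125. Over input, an alternative chosen after seeing the data, the H3K4me2 difference was 0.932 points (exact permutation p = 0.477), and the cause was not tested. No paired analysis was possible because the level difference is taken within each library, and the result compares no groups that share replicate numbers. Unknown MED1 depth and 1 library per muscle limit every count of MED1 sites.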
